A study of Homo sapiens with 12 samples.

Results

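The IGF binding proteins IGFBP1 to IGFBP7 and the receptors IGF1R and IGF2R were examined as a family, by taking each row of the deposited array table that carries 1 of these 9 gene names. The table holds 34599 gene names in all, and the 9 members have 12 probes among its 47228 gene rows. RNA came from 2 established lines of human pancreatic ductal adenocarcinoma (PDAC), MIA PaCa-2 and Capan-1, and was hybridised to 12 Illumina HumanHT-12 v4 arrays. Each line carried a doxycycline-inducible short hairpin in the PLKO.1 tet-on backbone with a puromycin marker, either a scrambled control (shCtrl) or 1 of 2 hairpins against focal adhesion kinase (FAK), sh1209 and sh1319. The Capan-1 labels spell the last one shFAK1319, which was taken as sh1319. This gives 6 groups of 2 arrays. All groups, shCtrl included, were given doxycycline at 50 ng/ml, for 96 hours in all. MIA PaCa-2 was held in 3.5 ug/ml puromycin and Capan-1 in 1.5 ug/ml, so that the puromycin dose and the cell line cannot be told apart. Nothing in the labels tells whether paired arrays stem from different cultures, so the p-values measure the spread between these arrays, which may be technical.

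Insulin-like growth factors are secreted peptides that act through IGF1R, a tyrosine kinase receptor that feeds the PI3K to AKT branch and the ERK branch of growth signaling. In body fluids and in the matrix they are held by the IGF binding proteins, which prolong their life, limit their access to the receptor or, after cleavage by proteases, release them. IGF2R, also known as the cation-independent mannose 6-phosphate receptor, takes up IGF2 for breakdown and sorts lysosomal enzymes. FAK is a cytoplasmic tyrosine kinase that carries signals from integrins at focal adhesions. The comparisons asked how expression of these genes differed between FAK hairpins and shCtrl, between the hairpins, and between the cell lines.

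Levels are given below as normalized log2 intensity, after background correction and quantile normalization, and differences as log2 differences between group means. A difference was called when its limma p-value, adjusted by the Benjamini-Hochberg method over the 24207 probes detected in at least 2 arrays, was under 0.05. The levels of different probes are not compared, because probes differ in brightness. An offset of 16 in the background correction understates the change of dim probes. The table gives the RNA of whole cultures, in which fewer cells with a transcript and less of it per cell cannot be told apart. Of the 12 member probes, 10 were tested. The single IGF1R probe (3130056) was detected in 0 of 12 arrays, with intensities of 78.9 to 92.8, and so was IGFBP5 probe 2120524, with 76.6 to 87.6. No level of IGF1R, the signaling receptor of the family, can therefore be given for these cells.

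Of the 9 members, 7 have an entry in the RefSeq promoter table of GRCh38.p14, and IGFBP1 and IGFBP7 do not. The 250 bases before the start of IGFBP3, IGFBP4 and IGFBP6 are shown because these 3 binding proteins rose with a FAK hairpin. They are given 5′ to 3′ on the strand of the gene. Capitals mark matches, on either strand, to the letters of a core promoter box, TATAAA, of a GC box, GGGCGG, of the site of the AP-1 factors, TGANTCA, or of the site of the TEAD factors, GGAATG, and no matches overlapped.
IGFBP3, minus strand, chr7:45921273-45921522: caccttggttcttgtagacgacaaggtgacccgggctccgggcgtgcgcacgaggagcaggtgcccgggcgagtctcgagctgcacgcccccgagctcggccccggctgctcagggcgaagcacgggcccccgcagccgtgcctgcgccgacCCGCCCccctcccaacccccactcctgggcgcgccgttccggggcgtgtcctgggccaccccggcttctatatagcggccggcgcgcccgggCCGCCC
IGFBP4, plus strand, chr17:40443200-40443449: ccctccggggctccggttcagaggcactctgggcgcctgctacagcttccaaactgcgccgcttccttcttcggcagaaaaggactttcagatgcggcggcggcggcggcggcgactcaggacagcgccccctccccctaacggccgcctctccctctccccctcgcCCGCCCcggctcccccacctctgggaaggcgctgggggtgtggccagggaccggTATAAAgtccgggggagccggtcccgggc
IGFBP6, plus strand, chr12:53097417-53097666: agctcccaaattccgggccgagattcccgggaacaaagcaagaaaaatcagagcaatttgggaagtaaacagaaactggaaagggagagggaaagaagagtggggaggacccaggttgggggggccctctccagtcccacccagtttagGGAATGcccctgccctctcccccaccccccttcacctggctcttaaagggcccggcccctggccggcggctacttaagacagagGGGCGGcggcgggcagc
The GC box letters occurred in all 3 stretches, in IGFBP3 at 6 and 98 bases before the start, in IGFBP4 at 83 and in IGFBP6 at 17, and 42.6% of the 35116 promoters of this length in the table hold them. TATAAA occurred in the IGFBP4 stretch, 29 bases before the start, against 10.7% of all promoters. GGAATG occurred in the IGFBP6 stretch, at 101 bases, against 11.9%, and TGANTCA in none of the 3, against 6.57%. These matches describe the letters of the reference and were not tested as binding sites.

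The targeted gene and some markers of the lines were looked at first. PTK2, which encodes FAK, fell in all 4 hairpin groups at probe 450253. In MIA PaCa-2 the signal left was 21.1% of shCtrl with sh1209 and 17.9% with sh1319 (limma, adjusted p = 1.5e-07 and 5.2e-08). In Capan-1 it was 65.4% and 29.2% (limma, adjusted p = 0.0036 and 5.9e-06), so that the most PTK2 signal was left with sh1209 in Capan-1. That fall, of -0.61, did not pass with median scaling (-0.42, limma adjusted p = 0.23), the alternative that lost it. A dimmer PTK2 probe, 2680750, was not called in any of these comparisons (limma, adjusted p from 0.08 to 0.25). In Capan-1 it passed with sh1209 under the replicate block (-0.46, limma adjusted p = 0.049), and with both hairpins in a fit of Capan-1 alone (limma, adjusted p = 0.039 and 0.045). CDH1, the epithelial cadherin, was detected in all 6 Capan-1 arrays and in 0 of 6 MIA PaCa-2 arrays. The same held for CDH2, which was listed as a mesenchymal marker. KRT8 and both KRT18 probes, listed as epithelial, were detected in all 6 arrays of each line. The array medians of raw intensity lay between 87.7 and 97.0, and correlations within a group, taken over probes that are not independent replicates, were 0.991 to 0.994.

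With the FAK hairpins, IGFBP4 rose in both cell lines, IGFBP3 rose in Capan-1, IGFBP1 fell with sh1319 in Capan-1, and IGFBP6 and IGF2R rose with 1 hairpin in a line. Of the 10 tested probes, 2 were higher and 1 lower with sh1209 in MIA PaCa-2, where 9.05% of all tested probes were called higher and 8.99% lower. The lower one, of IGFBP5, met the filter through the shCtrl arrays of that line alone. With sh1319 in MIA PaCa-2, 2 were higher and 0 lower, against 12.2% and 12.1% of all probes. At an unadjusted p under 0.05, 4 of the 10 passed in that comparison in limma, against 34.0% of all probes. In Capan-1, 3 were higher and 0 lower with sh1209, against 8.14% and 8.69%. With sh1319 in Capan-1, 4 were higher and 2 lower, against 6.95% and 6.77%. Both IGFBP3 probes are among the higher ones with each hairpin in Capan-1. The lower ones with sh1319 there are both of IGFBP1, so these are counts of probes and not of genes. The median difference of the 10 probes was 0.03, -0.10, 0.07 and 0.19 in these 4 comparisons in turn, and that of all tested probes was 0.009, -0.007, -0.008 and -0.001. Both hairpin comparisons of a line share the shCtrl arrays.

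**Figure D1:**
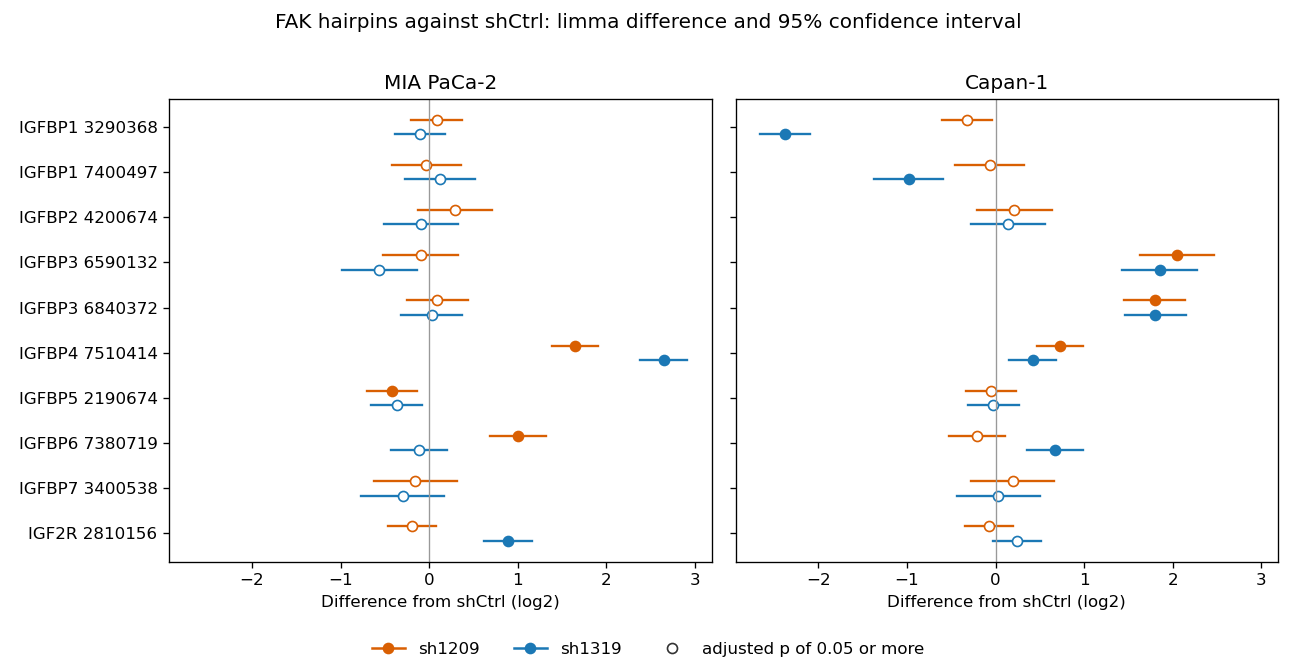
Difference from shCtrl (log2, horizontal axis) of the 10 tested member probes (vertical axis) with sh1209 (orange) and sh1319 (blue) in MIA PaCa-2 (left) and Capan-1 (right). Points are limma differences, bars are 95% confidence intervals, and filled points have an adjusted p under 0.05. IGFBP4 lies to the right of 0 in all 4 comparisons, from 0.42 to 2.65, and both IGFBP3 probes have filled points in Capan-1, from 1.80 to 2.05, and open points in MIA PaCa-2.

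IGFBP4, a secreted binding protein that is cut by the protease PAPPA, was the member called in all 4 comparisons. Its level at probe 7510414 in MIA PaCa-2 was 6.51 and 6.66 with shCtrl, 8.21 and 8.26 with sh1209, and 9.24 and 9.23 with sh1319. The 3 groups did not overlap, and the raw intensity behind them was 150.7 and 154.4 with shCtrl against 638.4 and 803.8 with sh1319. The rise was 3.13-fold with sh1209 (log2 difference 1.65, SE 0.12, limma adjusted p = 2.9e-06). With sh1319 it was 6.27-fold (2.65, SE 0.12, limma adjusted p = 4.8e-08), and the hairpins differed from each other by -1.0, sh1209 being lower (95% CI -1.26 to -0.74, limma adjusted p = 9.9e-05).

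In Capan-1, where the shCtrl level of IGFBP4 was higher, the rise was smaller. The values were 8.38 and 8.21 with shCtrl, 9.02 and 9.03 with sh1209, and 8.62 and 8.81 with sh1319, again without overlap. IGFBP4 was 1.66-fold higher with sh1209 (log2 difference 0.73, limma adjusted p = 0.0017) and 1.34-fold higher with sh1319 (0.42, limma adjusted p = 0.039). The last call was not kept with median scaling (0.59, where the median of all probes was 0.107, limma adjusted p = 0.077), in a fit of Capan-1 alone (limma adjusted p = 0.063) or without any 1 of 10 of the 12 arrays, where it lay between 0.32 and 0.52. In the order of the 6 groups, IGFBP4 was highest in MIA PaCa-2 with sh1319 (9.24 ± 0.003, SD, n = 2), then in Capan-1 with sh1209, sh1319 and shCtrl, then in MIA PaCa-2 with sh1209 (8.24 ± 0.04, SD, n = 2), and lowest in MIA PaCa-2 with shCtrl (6.59 ± 0.11, SD, n = 2). The arrays of Capan-1 shCtrl and MIA PaCa-2 sh1209, neighbours in this order, overlapped. The mean response of IGFBP4 to the hairpins was larger by 1.57 in MIA PaCa-2 than in the other line (95% CI 1.25 to 1.90, limma adjusted p = 3e-05).

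**Figure D2:**
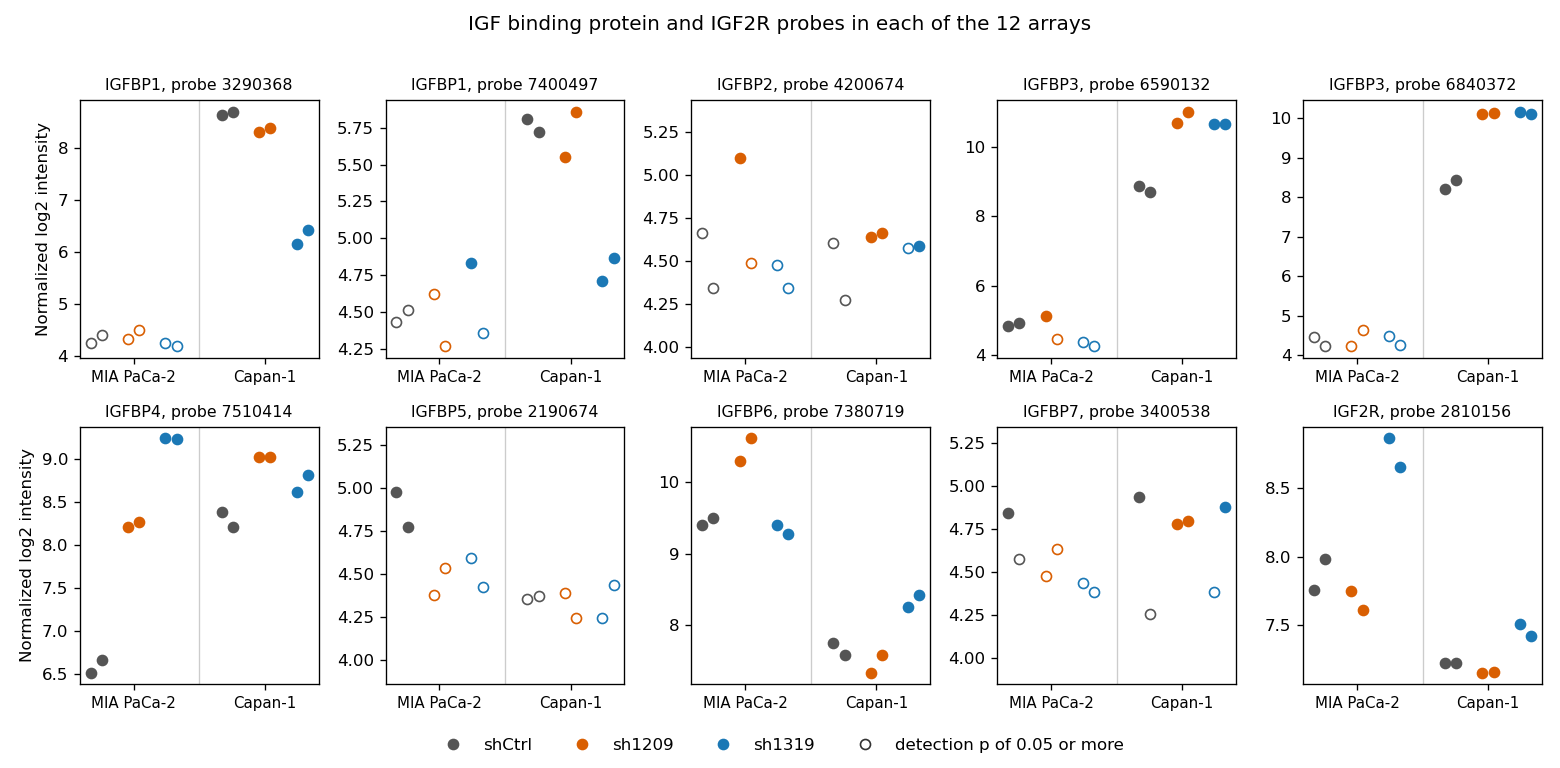
Normalized log2 intensity (vertical axis, a separate range for each panel) of the 10 tested member probes in the 12 arrays, by cell line (horizontal axis) and hairpin (grey shCtrl, orange sh1209, blue sh1319). Each point is 1 array, and open points had a detection p of 0.05 or more. IGFBP1 and IGFBP3 are high in Capan-1 and near the floor in MIA PaCa-2, while IGFBP4 starts lowest in MIA PaCa-2 with shCtrl, at 6.51 and 6.66.

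IGFBP3, the main carrier of IGFs in blood, rose in Capan-1 with both hairpins and had no call in MIA PaCa-2. At probe 6590132 the Capan-1 level was 8.88 and 8.69 with shCtrl, 10.67 and 11.00 with sh1209, and 10.64 and 10.64 with sh1319. Probe 6840372 read 8.21 and 8.43, 10.10 and 10.14, and 10.16 and 10.10 in the same groups. At both probes each hairpin array lay above each shCtrl array. The rise at probe 6590132 was 4.13-fold with sh1209 (log2 difference 2.05, SE 0.19, limma adjusted p = 3e-05) and 3.61-fold with sh1319 (1.85, limma adjusted p = 0.00013). At probe 6840372 it was 3.47-fold (1.80, SE 0.16, limma adjusted p = 1.7e-05) and 3.50-fold (1.81, limma adjusted p = 3.9e-05). No difference between the hairpins was detectable in Capan-1, where the 95% CI ran from -0.23 to 0.62 at the first probe and from -0.35 to 0.34 at the second.

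MIA PaCa-2 held little IGFBP3 signal. Probe 6840372 was detected in 0 of 6 MIA PaCa-2 arrays, and probe 6590132 in 3 of 6, both shCtrl arrays and 1 sh1209 array, at intensities of 97.2, 100.5 and 97.8. The levels at probe 6590132 were 4.85 and 4.92 with shCtrl, 5.12 and 4.45 with sh1209, and 4.38 and 4.26 with sh1319. The sh1319 value, -0.56 from shCtrl, missed the threshold (limma, adjusted p = 0.053) and passed it under 3 alternatives, the stricter filter and leaving out either sh1209 array of MIA PaCa-2. Because sh1319 had no detected array, that difference is only a bound, of at least 1.13-fold lower. The hairpin response of IGFBP3 differed between the lines by -2.28 at probe 6590132 (95% CI -2.80 to -1.77, limma adjusted p = 6.8e-05) and by -1.74 at probe 6840372 (95% CI -2.16 to -1.32, limma adjusted p = 0.00011), MIA PaCa-2 minus Capan-1. The second of these sets the Capan-1 rise against a probe that was not above background in MIA PaCa-2, and is not a measured response of that line. The first includes the sh1319 difference in MIA PaCa-2 that is only a bound, so its size is uncertain.

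IGFBP1, a binding protein made by the liver under the control of insulin, fell in Capan-1 with sh1319. The level at probe 3290368 was 8.64 and 8.70 with shCtrl, 8.31 and 8.38 with sh1209, and 6.16 and 6.44 with sh1319. Probe 7400497, a dimmer one, read 5.81 and 5.72, 5.55 and 5.86, and 4.71 and 4.87. With sh1319 the 2 arrays lay below the other 4 Capan-1 arrays at both probes. The signal left with sh1319 was 19.3% of shCtrl at probe 3290368 (log2 difference -2.37, SE 0.13, limma adjusted p = 1.8e-06) and 50.7% at probe 7400497 (-0.98, SE 0.18, limma adjusted p = 0.0038). The probes gave the same direction and unequal sizes, and the second value was -0.35 without background correction, still called.

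With sh1209, IGFBP1 had no call in Capan-1, at -0.32 for probe 3290368 (95% CI -0.61 to -0.04, limma adjusted p = 0.12) and -0.06 for probe 7400497 (95% CI -0.45 to 0.33, limma adjusted p = 0.88). The first of these passed the threshold without background correction (-0.27, limma adjusted p = 0.0096). The hairpins themselves differed, by 2.05 at probe 3290368 (limma, adjusted p = 1.9e-06) and by 0.92 at probe 7400497 (limma, adjusted p = 0.0066). The second of these was 0.32 without background correction, still called, and was not kept without Capan-1 sh1319 replicate 1 (0.84, limma adjusted p = 0.062) or sh1209 replicate 2 (0.76, limma adjusted p = 0.07). In MIA PaCa-2, probe 3290368 was detected in 0 of 6 arrays and probe 7400497 in 1, so that a fall could not be measured there. IGFBP1 and IGFBP3 are neighbours on chromosome 7 in the RefSeq annotation of GRCh38.p14, with no protein-coding gene between them, and with sh1319 in Capan-1 IGFBP1 fell and IGFBP3 rose.

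IGFBP6, a binding protein that prefers IGF2 to IGF1, rose with a different hairpin in each line. In MIA PaCa-2 the level at probe 7380719 was 9.40 and 9.49 with shCtrl, 10.30 and 10.61 with sh1209, and 9.39 and 9.27 with sh1319. In Capan-1 it was 7.75 and 7.58 with shCtrl, 7.34 and 7.58 with sh1209, and 8.26 and 8.42 with sh1319. The raised group stood clear of the other groups of its line, and sh1209 and shCtrl overlapped in Capan-1. The rise was 2.01-fold with sh1209 in MIA PaCa-2 (log2 difference 1.01, SE 0.14, limma adjusted p = 0.00052) and 1.59-fold with sh1319 in Capan-1 (0.67, SE 0.14, limma adjusted p = 0.0097). The second was not kept without Capan-1 shCtrl replicate 2 or sh1319 replicate 2 (0.59 in each, limma adjusted p = 0.08 and 0.079).

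The other hairpin of each line gave no call for IGFBP6, at -0.11 with sh1319 in MIA PaCa-2 (95% CI -0.43 to 0.20, limma adjusted p = 0.65) and -0.21 with sh1209 in Capan-1 (95% CI -0.52 to 0.11, limma adjusted p = 0.42). Between the hairpins, IGFBP6 differed by 1.12 in MIA PaCa-2, sh1209 being higher (limma, adjusted p = 0.00016), and by -0.88 in Capan-1, sh1319 being higher (limma, adjusted p = 0.0023). These hairpin differences themselves differed between the lines by 2.00 (95% CI 1.55 to 2.44, limma adjusted p = 6.3e-05), in a comparison that was added after the values were seen. All 6 MIA PaCa-2 arrays lay above all 6 Capan-1 arrays, from 10.45 ± 0.22 (SD, n = 2) with sh1209 in MIA PaCa-2 down to 7.46 ± 0.17 (SD, n = 2) with sh1209 in Capan-1.

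IGF2R, the receptor that clears IGF2, rose with sh1319 in MIA PaCa-2. Its level at probe 2810156 was 7.76 and 7.98 with shCtrl, 7.75 and 7.61 with sh1209, and 8.86 and 8.66 with sh1319. The sh1319 arrays were the highest of the 12. The rise was 1.85-fold (log2 difference 0.89, SE 0.12, limma adjusted p = 0.00028). With sh1209 the difference from shCtrl was -0.19 (95% CI -0.46 to 0.08, limma adjusted p = 0.35), and the hairpins differed by -1.08 (limma, adjusted p = 7.4e-05). The Capan-1 levels of IGF2R were 7.23 and 7.23 with shCtrl, 7.16 and 7.16 with sh1209, and 7.51 and 7.43 with sh1319. Neither Capan-1 difference was called, at -0.07 with sh1209 (95% CI -0.34 to 0.20, limma adjusted p = 0.8) and 0.24 with sh1319 (95% CI -0.03 to 0.51, limma adjusted p = 0.26).

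IGFBP2, IGFBP5 and IGFBP7 lay near the background. IGFBP5, a matrix-bound binding protein whose gene neighbours IGFBP2 on chromosome 2, was detected at probe 2190674 in 2 of 12 arrays, those of MIA PaCa-2 with shCtrl, at 4.97 and 4.77. The probe met the filter through these arrays alone, so calls against MIA PaCa-2 shCtrl are not independent of the filter. In MIA PaCa-2 it read 4.38 and 4.54 with sh1209 and 4.59 and 4.42 with sh1319, below both shCtrl arrays. The fall with sh1209 passed the threshold (log2 difference -0.42, limma adjusted p = 0.045) and that with sh1319 did not (-0.37, limma adjusted p = 0.061). No array with sh1209 was above background, so the fall is a bound of at least 1.16-fold, and 15 of 18 alternatives did not keep the call, among them median scaling (-0.32, limma adjusted p = 0.42) and leaving out any 1 of the 6 MIA PaCa-2 arrays. In Capan-1 its differences from shCtrl were -0.05 and -0.02 (limma, adjusted p = 0.87 and 0.95).

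IGFBP2 was detected at probe 4200674 in 1 MIA PaCa-2 array and 3 Capan-1 arrays, with intensities of 87.2 to 103.2 over the 12. Its differences from shCtrl lay between -0.09 and 0.29, with no call (limma, adjusted p from 0.35 to 0.8). IGFBP7, which binds IGFs weakly and is abundant in vessel walls, was detected at probe 3400538 in 1 MIA PaCa-2 array and 4 Capan-1 arrays, with intensities of 86.4 to 111.2. Its differences lay between -0.30 and 0.19 (limma, adjusted p from 0.38 to 0.95). No change of either gene from shCtrl was called at this brightness, which does not show that there was none. Between the hairpins in MIA PaCa-2, IGFBP2 differed by 0.38 without a call, and by 0.69 with sh1209 replicate 2 left out.

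The cell lines differed in most of these genes before any FAK knockdown. With shCtrl, 8 of the 10 probes differed between MIA PaCa-2 and Capan-1, 3 higher and 5 lower in MIA PaCa-2, where 42.1% of all tested probes differed. Among the 3 higher is IGFBP5, whose probe met the filter through the MIA PaCa-2 shCtrl arrays alone. The median difference of the 10 was -0.61, against 0.04 for all tested probes. Both probes of IGFBP1 and both of IGFBP3 enter this median, all lower in MIA PaCa-2, so it is not a median over genes. The values of IGFBP2, IGFBP5, IGFBP6, IGFBP7 and IGF2R were positive, those of IGFBP2 and IGFBP7 without a call. IGFBP1 was at least 15.6-fold higher in Capan-1 at probe 3290368 and at least 2.08-fold higher at probe 7400497 (limma, adjusted p = 1.4e-10 and 8.7e-05). Such bounds set the mean of the brighter group against the lowest signal of a detected probe in each array of the group where the probe was not detected. IGFBP3 was at least 12.2-fold higher in Capan-1 at probe 6840372 (limma, adjusted p = 1.5e-09) and 14.9-fold higher at probe 6590132 (log2 difference -3.90, limma adjusted p = 1.1e-08). IGFBP4 was 3.27-fold higher in Capan-1 (-1.71, limma adjusted p = 2.7e-07). The IGFBP1 and IGFBP3 sizes depend on the background correction. Without it the log2 differences went from -4.33 to -2.43 and from -1.29 to -0.45 at the IGFBP1 probes, and from -3.90 to -2.33 and from -3.97 to -2.15 at IGFBP3 probes 6590132 and 6840372, each still called.

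IGFBP6, IGF2R and IGFBP5 were the members higher in MIA PaCa-2. IGFBP6 was 3.43-fold higher there (log2 difference 1.78, SE 0.14, limma adjusted p = 9.5e-07) and IGF2R 1.56-fold (0.64, SE 0.12, limma adjusted p = 0.0012). IGFBP5 was at least 1.21-fold higher (0.51, limma adjusted p = 0.0072), a call lost without background correction (0.17, limma adjusted p = 0.051), with median scaling (0.42, limma adjusted p = 0.11) and without MIA PaCa-2 shCtrl replicate 1. Its probe met the filter through the MIA PaCa-2 shCtrl arrays alone, so this call is not independent of the filter. IGFBP2 and IGFBP7 had no call, at 0.06 and 0.11 (limma, adjusted p = 0.82 and 0.72).

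**Figure D3:**
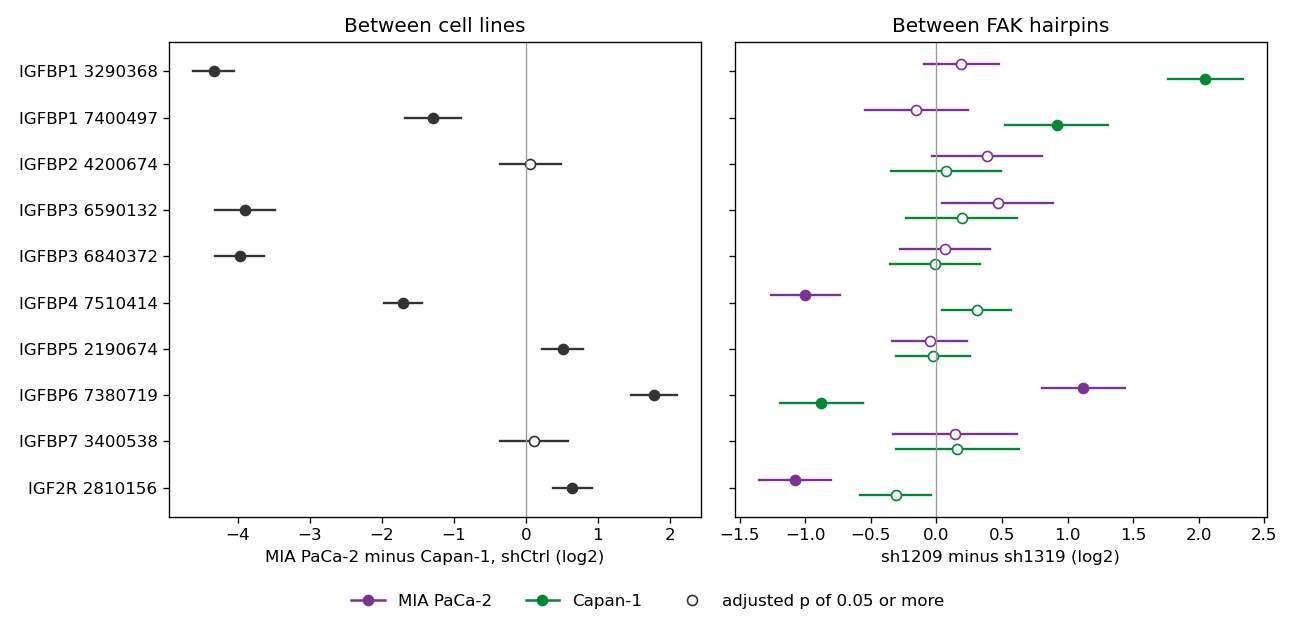
Left, difference between MIA PaCa-2 and Capan-1 with shCtrl (log2, positive where MIA PaCa-2 is higher) for the 10 tested member probes. Right, difference between sh1209 and sh1319 (log2, positive where sh1209 is higher) in MIA PaCa-2 (purple) and Capan-1 (green). Points are limma differences with 95% confidence intervals, filled where the adjusted p was under 0.05. IGFBP6 stands at 1.12 in MIA PaCa-2 and at -0.88 in Capan-1.

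The direct comparison of the hairpins called 3 of the 10 probes in MIA PaCa-2, 1 higher and 2 lower with sh1209, where 22.6% of all tested probes were called. In Capan-1 it called 3, 2 higher and 1 lower with sh1209, against 11.3%. The probes called were those of IGFBP4, IGFBP6 and IGF2R in MIA PaCa-2 and both IGFBP1 probes and IGFBP6 in Capan-1. The PTK2 signal at probe 450253 also differed between the hairpins in Capan-1, by 1.16 (limma, adjusted p = 6.2e-05), and not detectably in MIA PaCa-2, by 0.24 (95% CI -0.01 to 0.49, limma adjusted p = 0.17). PTK2 probe 2680750 differed by 0.59 between the hairpins in MIA PaCa-2 (limma, adjusted p = 0.021), a call lost under 5 alternatives, and by -0.0005 in Capan-1 (limma, adjusted p = 1). The part of the PTK2 differences in the member differences was not tested. The mean response to the hairpins differed between the lines for 4 of the 10 probes, against 14.4% of all tested probes, 2 higher (IGFBP1 probe 3290368 and IGFBP4) and 2 lower (both of IGFBP3) in MIA PaCa-2. Of these, IGFBP1 probe 3290368 and IGFBP3 probe 6840372 were detected in 0 of 6 MIA PaCa-2 arrays, and IGFBP3 probe 6590132 in 3. The difference between the hairpins differed between the lines for 5 of the 10, against 14.4%.

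Of the 37 called differences among the 90 tested for the 10 probes in 9 comparisons, 30 passed the threshold under each alternative apart from the methods' t-test, 7 were lost under at least 1, and 0 changed sign. Without background correction 9 of the 37 moved by over 1.5 times, and 0 did so under another of these alternatives. The plot of called differences over the alternatives shows this for those against shCtrl. Among 67 called differences of PTK2 and of probes that led the pathway list, 24 moved so without background correction and 7 under another alternative.

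**Figure D4:**
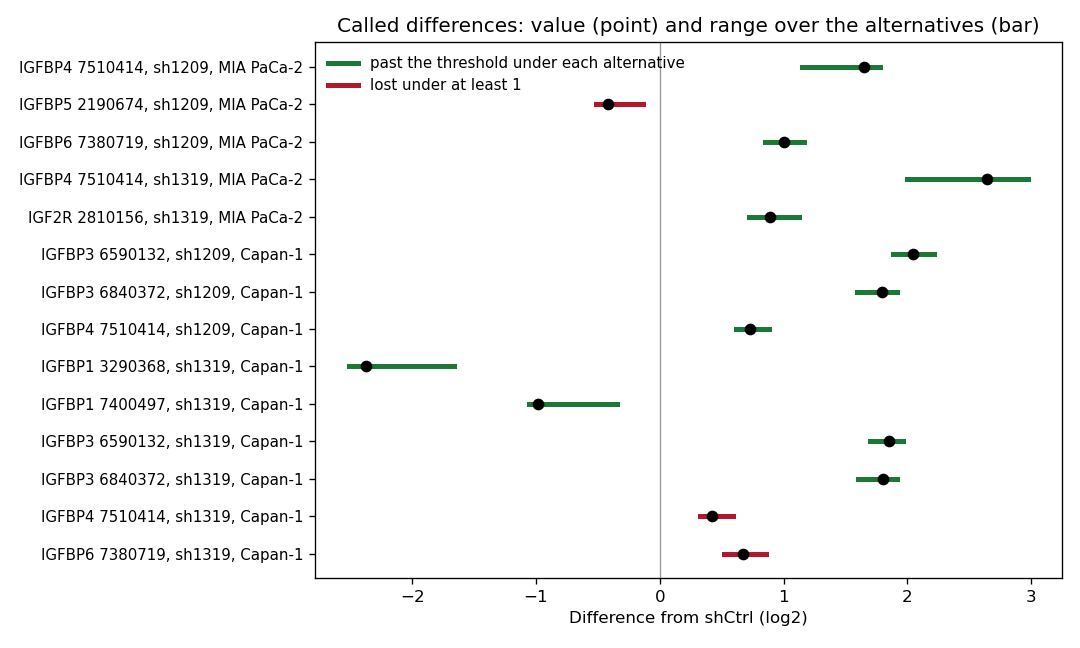
Called differences from shCtrl (log2, horizontal axis) of member probes, 1 row for each probe, hairpin and cell line. The point is the reported value and the bar runs from the lowest to the highest value over the alternatives apart from the methods' t-test, green where each kept the call and red where at least 1 did not. The 3 red bars are IGFBP5 with sh1209 in MIA PaCa-2 and IGFBP4 and IGFBP6 with sh1319 in Capan-1, and no bar reaches 0.

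Markers of cell state moved with some of these groups. The summed linear signal of 7 epithelial marker probes (CDH1, EPCAM and keratins) in MIA PaCa-2 was 1937 to 2006 with shCtrl, 1438 to 1553 with sh1209 and 955 to 1058 with sh1319, with KRT8 detected in all 6 arrays and CDH1 in none. KRT8 had a mean log2 level of 10.17 in that line, and the next brightest probe, of KRT18, 6.93. That sum is therefore mostly KRT8 signal and does not describe all 7. In Capan-1 it was 12444 to 12759 with shCtrl, 12438 to 12945 with sh1209 and 9738 to 11192 with sh1319, with all 7 probes detected. The sum of 7 mesenchymal probes in Capan-1 was 209.0 to 209.4, 257.2 to 263.9 and 313.6 to 323.2 in the same order. Only 2 of the 7 were detected in each Capan-1 group, CDH2 and VIM probe 830593, so the sum does not describe all 7. In MIA PaCa-2, where both VIM probes were detected in all 6 arrays and CDH2 in none, the sum lay between 15586 and 18565. Of 15 probes for immune, endothelial and fibroblast genes, 3 to 5 were detected in a group. Their sum in MIA PaCa-2 was 645.5 to 675.5 with shCtrl, 1027 to 1147 with sh1209 and 793.3 to 825.4 with sh1319, and in Capan-1 1076 to 1160, 1253 to 1311 and 1120 to 1230. CD68 was detected in all arrays at probes 3120370 and 4570438, and at probe 6220382 in 3 MIA PaCa-2 and 5 Capan-1 arrays. PECAM1 was detected in 2 MIA PaCa-2 and 5 Capan-1 arrays, and VWF and LUM in 2 Capan-1 arrays each. COL3A1 was detected in 4 of 6 MIA PaCa-2 arrays, and PTPRC and DCN in at most 1 array each. The part of these shifts in the member differences was not tested.

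The rest of the IGF pathway was followed through 38 listed genes, of which 27 had a tested probe, 39 probes in all. Among ligands, IGF1 had 1 tested probe with no call, and IGF2, insulin (INS) and the insulin receptor (INSR) had none. With sh1209 in MIA PaCa-2, 5 of the 39 rose and 5 fell, against 9.05% and 8.99% of all probes, the largest being HTRA1, a secreted protease that cuts IGF binding proteins (1.84, limma adjusted p = 3.2e-06), STC1, a stanniocalcin that blocks PAPPA (1.12, limma adjusted p = 2e-04), and PIK3R1, a regulatory subunit of PI3K, at probe 1470753 (-1.03, limma adjusted p = 0.0013). With sh1319 there, 3 rose and 11 fell, against 12.2% and 12.1%, led by the adaptor GRB2 at probe 940039 (-1.28, limma adjusted p = 0.00012), HTRA1 (1.06, limma adjusted p = 0.00014) and the mTOR inhibitor TSC1 at probe 4040373 (-0.96, limma adjusted p = 3e-04). In Capan-1, 2 rose and 3 fell with sh1209, against 8.14% and 8.69%, led by IRS1, the docking protein of IGF1R (-0.94, limma adjusted p = 0.00021), the transcription factor FOXO3 at probe 6200692 (0.78, limma adjusted p = 0.0036) and IRS2 (0.67, limma adjusted p = 0.0063). With sh1319 in Capan-1, 2 rose and 5 fell, against 6.95% and 6.77%, led by HTRA1 (-1.27, limma adjusted p = 0.00014), GRB2 at probe 7380725 (-1.16, limma adjusted p = 0.0011) and FOXO3 at the same probe (1.12, limma adjusted p = 5e-04). Not every probe of these genes passed. There was no call for GRB2 probe 940039 with sh1319 in Capan-1 (-0.36, limma adjusted p = 0.18), for FOXO3 probe 2630546 with sh1209 and sh1319 there (0.15 and 0.57, limma adjusted p = 0.7 and 0.067), for PIK3R1 probe 4290450 with sh1209 in MIA PaCa-2 (-0.46, limma adjusted p = 0.062) or for TSC1 probe 5720605 with sh1319 in MIA PaCa-2 (0.26, limma adjusted p = 0.49).

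IRS1 fell in all 4 comparisons, by 0.37 and 0.65 on the log2 scale in MIA PaCa-2 (limma, adjusted p = 0.043 and 0.0014) and by 0.94 and 0.78 in Capan-1 (limma, adjusted p = 0.00021 and 0.0011). The first of these was lost under 13 alternatives, and with median scaling the value with sh1209 in Capan-1 was the one of the 4 that passed. HTRA1 rose with both hairpins in MIA PaCa-2 and fell with both in Capan-1, and its response differed between the lines by 2.33 (limma, adjusted p = 3.6e-06). Its Capan-1 fall of -0.48 under sh1209 (limma, adjusted p = 0.03) was lost under 4 alternatives, among them median scaling (-0.23). The median over the 39 probes was 0.10, -0.10, -0.05 and 0.03 in the 4 comparisons. Between the lines with shCtrl, 11 of the 39 were higher and 7 lower in MIA PaCa-2, against 42.1% of all probes in either direction, the largest SHC1 at probe 6250019 (2.04, against 0.39 at probe 4200538), IGF2BP3 (1.77) and HTRA1 (-1.68, limma adjusted p from 3.3e-07 to 4.7e-06). Between the hairpins in MIA PaCa-2, where 22.6% of all probes were called, 8 were higher with sh1209 and 1 lower, led by GRB2 at probe 940039 (1.54), IGF2BP3 (1.06) and STC1 (0.97, limma adjusted p from 3.3e-05 to 0.00086). In Capan-1, 3 were higher and 0 lower, against 11.3%, HTRA1 (0.79), GRB2 at probe 940039 (0.66) and RPS6KB1 (0.47, limma adjusted p from 0.0032 to 0.035), each lost under at least 1 alternative. The response to the hairpins differed between the lines for 7, against 14.4%, 3 higher and 4 lower in MIA PaCa-2, led by HTRA1, IRS2 (-1.18) and IGF2BP2 (-1.09, limma adjusted p = 0.00073 and 0.001). The hairpin difference did so for 3, against 14.4%, all higher, IGF2BP3 (1.28), GRB2 at probe 940039 (0.88, with 0.22 and no call at probe 7380725) and STC1 (0.82, limma adjusted p from 0.0048 to 0.022), the last 2 lost under 7 and 6 alternatives. Without background correction these GRB2 and STC1 values were 0.41 and 0.30, and the IRS2 response -0.68, each still called. Between the hairpins in MIA PaCa-2, GRB2 and STC1 were then 0.66 and 0.35, and GRB2 in Capan-1 was 0.25, each still called. SHC1 probe 6250019, IGF2BP2 and IGF2BP3 sizes given above did not move by over 1.5 times.

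Across the 12 arrays, the genes most like IGFBP3 probe 6590132 in level included SDCBP2 and SPDEF (Pearson r of 0.997 for each), and those most like probe 6840372 included GSTM3 and RNASE1 (0.998 and 0.997). The IGFBP3 probes correlated with each other at 0.994. For IGFBP1 probe 3290368 the most alike were KCTD14, ARHGEF3 and IL1RL1 (each 0.993), and its own second probe stood at 0.944. These correlations describe arrays that share 1 chip and fall into the cell lines. The part of the line difference in their size was not tested.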

How the data were processed

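Total RNA, 500 ng a sample, was labelled and hybridised to Illumina HumanHT-12 v4 arrays on 1 chip. The authors deposited linear probe intensities and their detection p-values, neither background-subtracted nor normalized. The submitters' processing notes name GenomeStudio 2011.1. The lowest intensity was 66.6, and the number of arrays limits the precision.

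Samples were grouped by their labels. With limma 3.58.1 in R 4.3.3, all 47320 rows were background-corrected (normexp from the detection p-values, offset 16) and put on the log2 scale. Then 92 spike-in rows were dropped and the remaining rows were quantile-normalized. A probe was kept if 2 or more of the 12 arrays had it at a detection p under 0.05. lmFit and eBayes estimated a mean for each of 6 groups (residual degrees of freedom, 6), with Benjamini-Hochberg adjustment within each comparison. The fit was tested on simulated data. Gene names are those of the table, and 54 rows carry a date as name. Promoter sequences are from RefSeq (GRCh38.p14).

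The members and lists were chosen with earlier results of these data known. The text names all 9 members with each probe, PTK2, the 3 largest called changes of the pathway list in each comparison, and the 3 genes most like each of the 3 member probes with the widest range, of which 1 gene is not reported here. IRS1 and HTRA1 are given in further comparisons, chosen after their values were seen. Alternatives were median scaling, leaving out the background correction or the filter, a stricter filter (p under 0.01 in 4 arrays), the replicate number as a block, array weights, a fit of 1 cell line, the methods' t-test and each array left out. The cell line difference in the hairpin difference was added after the values were seen.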

Additional observations from a re-analysis of the deposited data

Results flagged for a closer look

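The response to the FAK hairpins, averaged over sh1209 and sh1319, differed between MIA PaCa-2 and Capan-1 by limma's test of that difference for 4 member probes. MIA PaCa-2 minus Capan-1, the value was 1.57 for IGFBP4 (adjusted p = 3e-05), 1.34 for IGFBP1 probe 3290368 (adjusted p = 2e-04), -2.28 for IGFBP3 probe 6590132 (adjusted p = 6.8e-05) and -1.74 for IGFBP3 probe 6840372 (adjusted p = 0.00011). IGFBP1 probe 3290368 and IGFBP3 probe 6840372 were detected in 0 of 6 MIA PaCa-2 arrays, so their values rest on the fall and the rise in Capan-1. IGFBP3 probe 6590132 was detected in 3 of 6 there and in no sh1319 array, so the size of its value is uncertain.

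The difference between the hairpins, sh1209 minus sh1319, also differed between the lines, in a comparison added after the values were seen. The value was 2.00 for IGFBP6 (limma, adjusted p = 6.3e-05), -1.31 for IGFBP4 (adjusted p = 0.00039), -0.77 for IGF2R (adjusted p = 0.013), -1.86 for IGFBP1 probe 3290368 (adjusted p = 4.9e-05) and -1.07 for IGFBP1 probe 7400497 (adjusted p = 0.015). The IGFBP1 probes were detected in 0 of 6 and 1 of 6 MIA PaCa-2 arrays, so their values rest on Capan-1. The last was not called without any 1 of 4 arrays and that of IGF2R without MIA PaCa-2 sh1319 replicate 1.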

How the results depend on the processing

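Of the 37 called member differences, 0 changed sign under an alternative. Leaving out 1 array moved the count of the 10 member probes called for the cell line difference in the hairpin difference from 5 to between 3 and 5, the lowest without MIA PaCa-2 sh1319 replicate 1, and the count between the hairpins in MIA PaCa-2 from 3 to between 3 and 5, the highest without MIA PaCa-2 sh1209 replicate 2. The methods' t-test at the unadjusted 0.05 threshold called 5 with sh1209 in Capan-1, against 20.4% of all probes, and 5 between the hairpins in Capan-1, against 16.5%, and after Benjamini-Hochberg 0 in each of the 4 comparisons with shCtrl and both hairpin comparisons, and 6 between the lines. The causes were not tested. With 2 arrays a group, the plain test has few degrees of freedom.

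The replicate block left 2, 2, 3 and 6 of the 10 called in the 4 comparisons with shCtrl, and the only member call it lost there was the fall of IGFBP5 with sh1209 in MIA PaCa-2 (adjusted p = 0.057). Deviations of same-numbered arrays correlated at -0.06 to 0.16 over 15 pairs of groups, 1 of them above 0.1, so the numbers were not taken as pairs.

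Over all tested probes, median scaling in place of quantile normalization called 2243 in place of 4365 with sh1209 in MIA PaCa-2, 3846 in place of 5887 with sh1319 there, and 2459 in place of 4074 with sh1209 in Capan-1. The share of these calls that were higher moved from 50.3% to 66.6% with sh1319 in MIA PaCa-2, from 48.4% to 81.7% with sh1209 in Capan-1 and from 50.6% to 85.3% with sh1319 in Capan-1, where it moved the median of all probes to 0.107. Between the hairpins it called 3477 in place of 5478 in MIA PaCa-2, with the share higher going from 50.6% to 34.7%, and 1217 in place of 2730 in Capan-1. It called 1834 in place of 3475 for the cell line difference in response, with 31.7% higher in place of 50.4%, and 1760 in place of 3478 for that in the hairpin difference, with 31.5% in place of 47.2%. Leaving out 1 array of the groups compared left 2170 to 2441 called with sh1209 there, 1742 to 1919 with sh1319 and 1281 to 1471 between the hairpins, and without 1 array of Capan-1 shCtrl or sh1209 the cell line differences in response and in the hairpin difference fell to as few as 2212 and 2282. No difference of IGFBP2 or IGFBP7 from shCtrl was called, at a signal near the background.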
